A study of Mus musculus with 6 samples.

Results

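Mouse chromosome 12 carried 374 genes with a mean level above 4 CPM (counts scaled to a common library size) over 6 RNA-seq libraries of sorted sarcoma cells, out of 10558 genes with a known position and the same level on all chromosomes. Genes were placed by the GRCm38 coordinates of their Ensembl identifiers, and 1528 of the 35727 genes in the deposited table lay on chromosome 12. The chromosome was picked because its genes stood apart in the comparison of the 2 groups described here. Every difference between the groups below is therefore a description of these libraries, with no test read from it.

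All libraries came from 1 mouse cell line with an undifferentiated pleomorphic sarcoma phenotype. Mesenchymal stem cells of female C57/Bl6 mice lacking p53 had been given a retrovirus with Ccne1 (cyclin E1) and a red fluorescent tracer, and the cells were passed under the skin of female wild-type mice of the same strain before they were brought back into culture. In the shSCR group (3 libraries) the line also carried a scrambled hairpin, and in the shPostn group (3 libraries) a hairpin against Postn, the gene of the matrix protein periostin. Both groups thus shared the p53 loss, the Ccne1 vector and the tracer. Each hairpin stood for 1 transduced line, so an effect of the Postn hairpin and a difference between the lines cannot be told apart. The lines were grown as tumours in mice whose strain and age the labels do not give, and polyadenylated RNA was taken from tracer-positive sorted cells. Whether replicates stand for different animals is not stated, so spreads and adjusted p-values cover only the variation among these samples.

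When a whole chromosome is gained or lost, the RNA of most of its genes usually moves in the same direction by a similar factor, while single genes can depart from it through their own regulation. Subunits of protein complexes allow a comparison, because their partners are mostly encoded on other chromosomes. No DNA measurement was analysed here, so a gain of chromosome 12 and a change of its transcription cannot be told apart, and in bulk RNA neither can a change in few cells and a smaller change in all of them.

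The libraries held between 19603269 and 20376554 counts, with 15901 to 16666 genes detected. Postn was at 4097, 3602 and 3225 CPM in shSCR and at 217, 471 and 639 CPM in shPostn, which left 12.1% of the shSCR mean. The summed level of 12 mesenchymal markers lay between 39689 and 61816 CPM, and 11 of the 12 were above 4 CPM. Across the 26 leukocyte markers, of which 19 were above 4 CPM and none was at 0 in all libraries, the summed level was 351, 249 and 151 CPM in shSCR and 239, 107 and 1579 CPM in shPostn, so shPostn replicate 3 stood apart. On the second principal component (33.4% of the variance) that library scored 56.5 and the rest -22.5 to 1.52. Sums of 10 endothelial markers (2.57 to 8.89 CPM) and of 7 erythroid markers (0.152 to 27.6 CPM, with 2 genes at 0 in all libraries) were low throughout. No marker of these 4 lists was among the chromosome 12 genes described here.

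The promoters below show the kinds of sequence at which the members began. They are the members with a RefSeq entry that lay farthest below the chromosome median (Serpina1d and Dio2) and farthest above it (Gpr135 and Fam110c), with the proteasome gene Psma3 as a member near the median; predicted genes were left out. Each is the 250 bases before the RefSeq start, in GRCm38.p6 and on the strand of the gene, with matches to any of 5 motifs, searched on both strands, in capitals. The motifs are TATAAA (the core element bound by TBP), GGGCGG (the core of the GC box), CCAAT (recognised by NF-Y), TGACGTCA (a cyclic-AMP response element) and TGANTCA (an AP-1 type sequence, where N is any base). Their positions are chr12:103773634-103773883 on the minus strand for Serpina1d, chr12:90739039-90739288 on the minus strand for Dio2, chr12:72071102-72071351 on the minus strand for Gpr135, chr12:31073718-31073967 on the plus strand for Fam110c and chr12:70974373-70974622 on the plus strand for Psma3.
Serpina1d: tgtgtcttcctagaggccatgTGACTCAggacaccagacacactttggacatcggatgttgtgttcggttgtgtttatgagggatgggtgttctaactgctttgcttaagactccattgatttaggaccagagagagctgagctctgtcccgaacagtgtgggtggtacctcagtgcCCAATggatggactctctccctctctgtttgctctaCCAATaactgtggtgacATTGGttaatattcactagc
Dio2: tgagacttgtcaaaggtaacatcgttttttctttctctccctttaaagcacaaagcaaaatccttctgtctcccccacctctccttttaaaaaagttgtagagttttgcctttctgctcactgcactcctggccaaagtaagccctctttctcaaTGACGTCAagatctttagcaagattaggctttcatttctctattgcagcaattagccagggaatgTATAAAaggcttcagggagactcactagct
Gpr135: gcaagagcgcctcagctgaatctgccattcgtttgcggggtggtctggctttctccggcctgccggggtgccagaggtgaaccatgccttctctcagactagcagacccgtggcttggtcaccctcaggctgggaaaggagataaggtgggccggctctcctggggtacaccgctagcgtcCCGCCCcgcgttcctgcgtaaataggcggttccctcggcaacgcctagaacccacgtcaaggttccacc
Fam110c: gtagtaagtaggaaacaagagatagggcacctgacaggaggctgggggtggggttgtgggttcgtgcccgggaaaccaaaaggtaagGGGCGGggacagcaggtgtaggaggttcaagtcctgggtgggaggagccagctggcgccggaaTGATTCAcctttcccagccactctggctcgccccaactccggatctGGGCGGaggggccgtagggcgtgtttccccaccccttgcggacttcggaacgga
Psma3: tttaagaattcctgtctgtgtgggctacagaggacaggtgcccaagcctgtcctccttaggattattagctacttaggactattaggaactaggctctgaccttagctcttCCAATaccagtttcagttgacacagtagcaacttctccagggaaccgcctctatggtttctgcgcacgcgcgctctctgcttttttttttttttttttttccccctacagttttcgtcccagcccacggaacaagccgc

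In Dio2 the TATAAA began 30 bases and the TGACGTCA 95 bases before the RefSeq start, which itself lay 600 bases from the start in the gene annotation used for positions. Serpina1d had CCAAT on either strand at 3 places and TGANTCA 229 bases before its start. Gpr135 had GGGCGG 69 bases upstream, read on the opposite strand, and Fam110c had it at 163 and 54 bases with TGANTCA at 100 bases. The Psma3 window held CCAAT at 139 bases as its only match. CpG dinucleotides numbered 3 in Serpina1d and 2 in Dio2, against 17 in Gpr135, 13 in Fam110c and 8 in Psma3. A match is a description of these letters and says nothing of a factor's binding.

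Chromosome 12 genes were higher in shPostn as a body. Their median log2 fold change (shPostn minus shSCR) was 0.39, a fold of 1.31, with quartiles of 0.26 and 0.53 and a range of -3.70 to 2.63. Of the 374 genes, 342 (91.4%) had a positive value, 298 were above the shSCR mean in all 3 shPostn libraries and 13 were below it in all 3. The 9903 genes of the other chromosomes at the same level, chromosome 18 left out, had a median of 0.01 and 51.3% positive values.

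The shift was present in each shPostn library and differed in size among them. The median log2 ratio of the 374 genes to the shSCR mean was 0.50, 0.40 and 0.25 in shPostn replicates 1 to 3, and 0.00, -0.01 and 0.01 in shSCR. Genes of other chromosomes had medians between -0.01 and 0.01 in all 6 libraries, and the 3 shPostn values lay above every shSCR value. The 374 genes took 2.96%, 2.89% and 2.94% of counts in shSCR (2.93% ± 0.0346, SD, n = 3) and 4.27%, 3.88% and 3.56% in shPostn (3.90% ± 0.357, SD, n = 3). Replicate 3, with the highest leukocyte marker sum, had the smallest shift, and 84.8% of its members lay above the shSCR mean against 92.0% and 91.7% in replicates 1 and 2. The part of leukocyte RNA in that smaller shift was not tested.

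**Figure D1:**
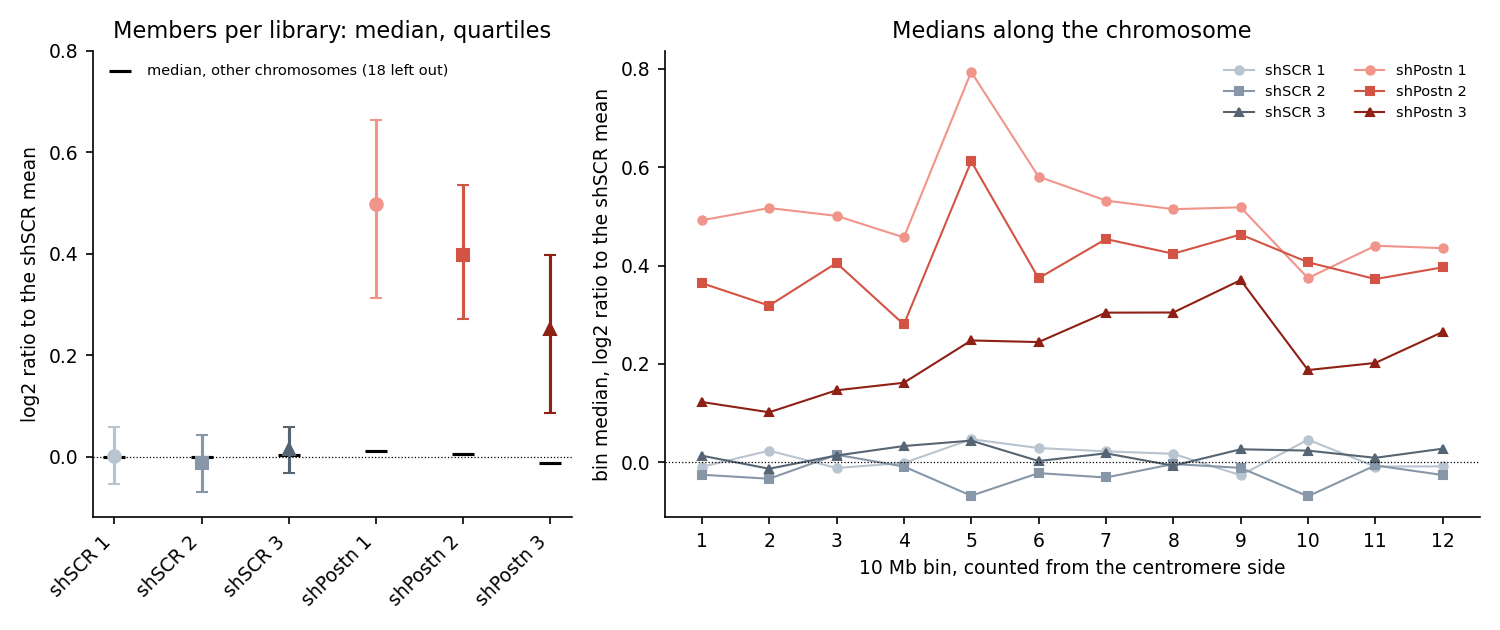
Left, median (symbol) and quartiles (bar) of the log2 ratio to the shSCR mean over the 374 members in each library, with the median of the other chromosomes, 18 left out, as a dash; right, the same medians in 12 bins of 10 Mb, 1 line per library. The shPostn medians are 0.50, 0.40 and 0.25 and every shPostn bin lies above the shSCR bins, which stay between -0.07 and 0.05.

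By edgeR's quasi-likelihood test at an adjusted p of 0.05, 162 members (43.3%) were called higher and 4 lower, beside 4.61% and 5.53% of all 12819 genes tested. Because the chromosome was chosen on this contrast, nothing is read from those shares. The higher count changed with each library left out. It was 57, 39 and 52 without shSCR replicates 1, 2 and 3, and 109 and 69 without shPostn replicates 1 and 2. Without shPostn replicate 3 it was 256. The chromosome median stayed between 0.32 and 0.45 in these refits. Leaving a library out also lowers the power of the test, and its part in these counts was not tested. Of 47 named genes with a call, 17 kept it under all 14 refits, and the other 30 lost it under at least 1. Of the 17, those that rose were Ccdc88c, Gpr135, Fam110c, Greb1, Ppp1r13b, Itgb8, Fut8, Lamb1, Tgfb3, Zfp36l1, Sec23a, Med6, Srp54a, Srp54b and Rpl36al. Those that fell were Serpina1d and Gm4027. Ccdc88c, Gpr135 and Ppp1r13b passed the 4 CPM minimum only through shPostn, and Gm4027 only through shSCR. Some of the 47 were named for their distance from the median in this contrast, and the refits reuse the same libraries. Nothing is read from which calls were kept. In 261 members (69.8%) all shPostn values lay above all shSCR values and in 8 all lay below, beside 16.6% and 17% of all genes tested.

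Positive medians were found along the whole chromosome at this resolution. The first member, Rab10 (a small GTPase of vesicle transport, starting at 3247428), had a log2 fold change of 0.54, and the last, Itgb8 (an integrin subunit, 119158022 to 119238802), one of 1.26. All 12 bins of 10 Mb had a positive median, the lowest 0.28 (90 to 100 Mb, 15 genes) and the highest 0.52 (40 to 50 Mb, 9 genes). In each shPostn library taken alone all 12 bins were also above 0, at 0.37 to 0.79, 0.28 to 0.61 and 0.10 to 0.37 in replicates 1 to 3. The shSCR bins lay between -0.07 and 0.05, so no bin of a shPostn library overlapped them. In 24 bins of 5 Mb, with 1 to 39 members each, all group medians were again positive, as were all bins of replicates 1 and 2, but 3 bins of replicate 3 were below 0. These were -0.04 at 35 to 40 Mb (7 members), -0.10 at 90 to 95 Mb (5 members) and -0.02 at 115 to 120 Mb (8 members). The group medians were lowest at 0.11 from 10 to 15 Mb, 0.15 from 90 to 95 Mb and 0.21 in the last bin.

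A running median over 25 neighbouring members varied around that level and met its extremes close together. Its highest value, 0.60, was shared by the windows centred on Fos, Erg28 and Ttll5. The first of these ran from Abcd4 to Tmed8 (84601464 to 87200454), where the libraries gave 0.66, 0.59 and 0.40. This window holds the growth factor gene Tgfb3, the AP-1 subunit gene Fos, the initiation factor gene Eif2b2 and Acyp1, an acylphosphatase gene (log2 fold change 0.81), but also Jdp2, a repressor of the AP-1 family, at 0.02. The lowest value, 0.28, was shared by the windows centred on the members from Sel1l to Zc3h14. The first of these ran from Vipas39 to Nrde2 (87238868 to 100159653), where the libraries gave 0.37, 0.41 and 0.19. Both windows were picked as extremes and are given as such.

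The first 40 Mb, a boundary chosen after the values were seen, held 88 members with a median of 0.33, against 0.41 in the other 286. The libraries did not share that gap. In replicate 1 both stretches had a median of 0.50, in replicate 2 they had 0.34 and 0.42, and in replicate 3 they had 0.14 and 0.27.

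**Figure D2:**
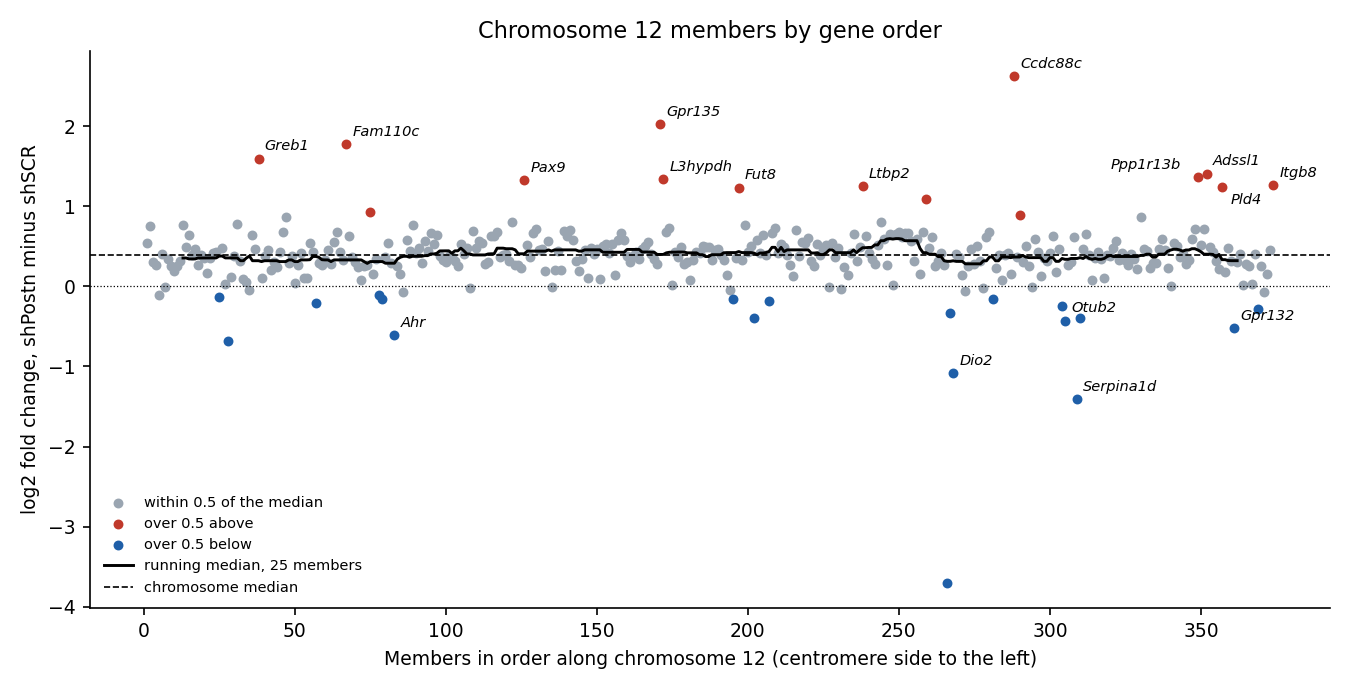
Log2 fold change (shPostn minus shSCR) of each of the 374 members in their order along chromosome 12, with the running median of 25 members (black line) and the chromosome median of 0.39 (dashed). The running median stays between 0.28 and 0.60, and the 34 genes over 0.5 from the median (15 in red above, 19 in blue below) are fewest in the middle left of the order, where 42 and 44 followers stand in a row on either side of Pax9.

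Strand, gene length and level made little difference to the centre of the distribution. The median was 0.37 for 207 genes on the plus strand and 0.41 for 167 on the minus strand. It was 0.40, 0.38 and 0.38 in the short, middle and long classes of gene span, and 0.39 in each of 3 equal classes of CPM per kilobase of exon. The 12 transcribed pseudogenes had a median of 0.13, and since near-identical copies can share reads their values are uncertain. The 94 chromosome 12 genes that were tested but lay at or below 4 CPM had a median of 0.38 with wider quartiles of -0.04 and 0.76.

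Other chromosomes differed from chromosome 12 in their centre rather than in their spread. Leaving out chromosome 18, the 18 other chromosomes had medians between -0.14 and 0.08. Their interquartile ranges were 0.22 to 0.28 against 0.27 for chromosome 12. Chromosome 18 had a median of -0.45, with -0.44, -0.46 and -0.44 in the 3 shPostn libraries, a narrower range than the 0.25 to 0.50 of chromosome 12. The share of genes more than 0.5 from their own chromosome's median was 9.09% on chromosome 12, within the 6.30% to 12.9% of the 18 others.

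**Figure D3:**
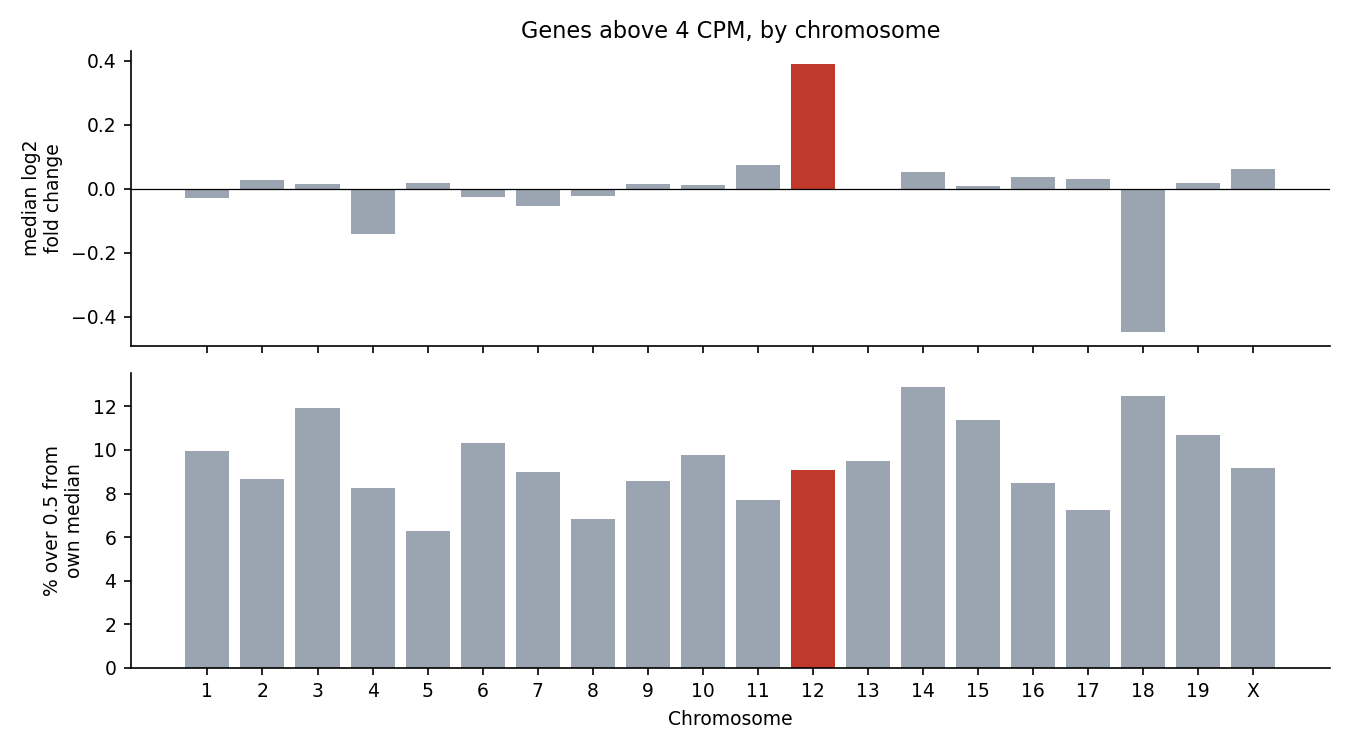
For genes above 4 CPM on each chromosome, the median log2 fold change (shPostn minus shSCR, upper bars) and the percentage of genes more than 0.5 from their own chromosome's median (lower bars). Chromosome 12 (red) stands at 0.39 and chromosome 18 at -0.45, with the 18 others between -0.14 and 0.08, while the 9.09% of chromosome 12 lies within the range of the others.

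Most members kept close to the chromosome median, 340 (90.9%) within 0.5 and 264 (70.6%) within 0.25 on the log2 scale. Per kilobase of exon, the most abundant of the 340 included Rps7 and Rps29, which encode proteins of the small ribosomal subunit, the lysosomal membrane gene Laptm4a, the cytosolic HSP90 gene Hsp90aa1, Fos and the small GTPase gene Rhob. Also among them were Nfkbia, which encodes the inhibitor that holds NF-kB in the cytosol, the disulfide isomerase gene Pdia6, the proteasome gene Psma6, the kinase gene Akt1 and the proteasome ATPase gene Psmc1. Rps7 had 1127, 1153 and 1157 CPM in shSCR and 1674, 1327 and 1149 CPM in shPostn, a log2 fold change of 0.27. Its shPostn replicate 3 lay within the shSCR values and the groups overlapped. Hsp90aa1 had 1122, 915 and 1016 CPM against 2550, 1587 and 1454 CPM (0.87, SE 0.22, or 0.58 without shPostn replicate 1), and was not called although its groups did not overlap.

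In protein complexes a subunit on chromosome 12 can be set beside its partners elsewhere. The 12 lists of complexes and machineries held 31 chromosome 12 subunits and 310 partners on other chromosomes, chromosome 18 left out. All 31 had a positive log2 fold change, beside 91.4% of all members, and all lay within 0.5 of the chromosome median, beside 90.9%. Their median was 0.46 and their range 0.21 to 0.87. Of the 31, 19 were called higher, against 43.3% of all members and 4.61% of all genes tested. Nothing is read from these counts. The partners had a median of -0.03 and a range of -0.42 to 0.82, 138 of the 310 were positive, 3 were called higher and 9 lower. For 28 of the 31 subunits, every partner of the same list had a lower value. The chromosome was picked for its shift in this contrast, so nothing is read from that count either.

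The proteasome, the protease that degrades ubiquitin-tagged proteins, showed this with 3 subunits. Psma3, an alpha-ring subunit (70974621 to 70996347, plus strand), had 108, 105 and 101 CPM in shSCR and 168, 144 and 133 CPM in shPostn, without overlap, and rose by a log2 fold change of 0.51 (SE 0.09). Psma6, of the same ring, had 152, 151 and 136 CPM against 207, 188 and 151 CPM (0.32, not called), and its replicate 3 fell among the shSCR values. Psmc1, an ATPase of the regulatory particle, had 183, 194 and 178 CPM against 264, 258 and 204 CPM (0.39, not called). The 29 proteasome partners on other chromosomes had a median of 0.06.

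Machineries of protein synthesis and export followed the same description. The ribosomal protein genes Rps7, Rps29 and Rpl36al had 0.27, 0.35 and 0.46, beside a median of -0.09 for 75 partners, and Rpl36al was called. Among translation initiation factors, Eif2s1, Eif2b2 and Eif5, which encode a subunit of the factor that brings the initiator tRNA, a subunit of its exchange factor and its GTPase activator, all rose, by 0.51, 0.52 and 0.54, beside 0.02 for 30 partners. The 3 copies of the signal-recognition-particle gene Srp54 had 0.62 (Srp54a), 0.67 (Srp54b) and 0.37 (Srp54c), of which the first 2 were called; they are near-identical, so the division of reads among them is uncertain.

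Sec23a, a coat subunit of vesicles leaving the endoplasmic reticulum, had 111, 115 and 117 CPM in shSCR and 194, 171 and 178 CPM in shPostn. Its groups lay far apart, with a log2 fold change of 0.66 (SE 0.07, called). With the TRAPP subunits Trappc6b (0.46, called) and Trappc12 (0.28, not called) it stood beside 20 partners with a median of 0.02.

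Nuclear and signalling complexes gave similar pairs of values. The Mediator subunit Med6 had 12.3, 13.1 and 12.8 CPM against 18.2, 18.1 and 19.1 CPM (0.54, called), one of the most even differences, and the general factor Gtf2a1 had 0.37 (called), beside 0.02 for 35 partners. Rrm2, the small subunit of the reductase that makes deoxynucleotides, rose by 0.55 and the polymerase epsilon subunit Pole2 had 0.46 without being called, beside -0.13 for 36 partners. Smc6 and Ncapg2, of the SMC complexes that fold and repair chromosomes, had 0.38 and 0.26, beside -0.04 for 21 partners, and neither was called. Of the PP2A phosphatase list, Strn3 (0.38), Ppp2r5e (0.50) and Ppp2r5c (0.34) were called and Ppp2r3c (0.39) was not, beside 0.03 for 15 partners. Atp6v1d, of the proton pump of lysosomes, rose by 0.44, beside 0.02 for 15 partners. A list of respiratory chain subunits had no gene on chromosome 12.

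The other 3 subunits did not exceed every partner. Dync1h1, the heavy chain of cytoplasmic dynein, had the smallest value of the 31, at 0.21 (984, 1016 and 990 CPM against 1257, 1209 and 999 CPM), and 2 of 15 partners were higher, while Actr10 of dynactin rose by 0.46. In the HSP90 list, Ahsa1, which stimulates the HSP90 ATPase, rose by 0.62 with 1 of 13 partners higher, and the co-chaperone gene Bag5 rose by 0.40 with 3 of 13 higher. That list also had the highest partner median of the 12, at 0.12.

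**Figure D4:**
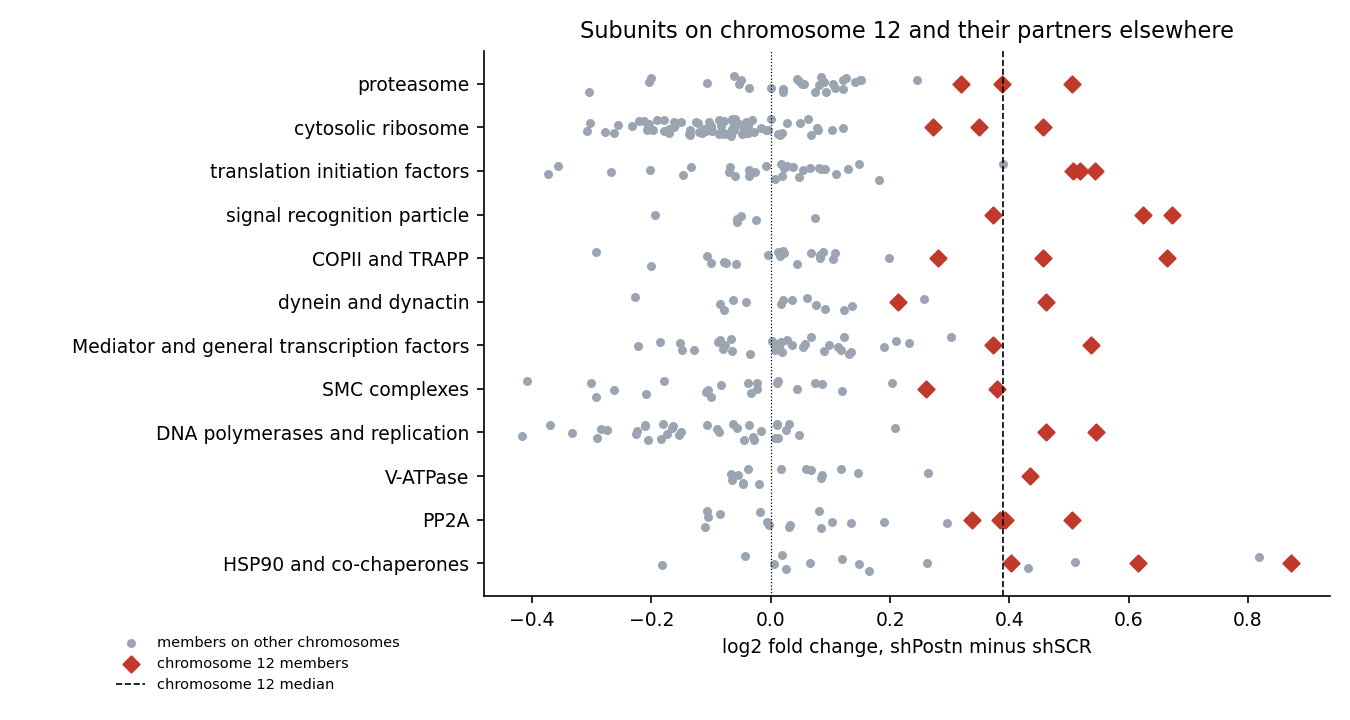
Log2 fold change (shPostn minus shSCR, horizontal axis) of the 31 chromosome 12 subunits (diamonds) and of their 310 partners on other chromosomes (dots), by complex, with the chromosome median as a dashed line. The subunits run from 0.21 to 0.87 around 0.39, and the partners centre on -0.03.

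Genes of signalling and matrix biology on chromosome 12 were more varied. Among 6 matrix and TGF-beta genes, Lamb1, a laminin chain, had 817, 855 and 831 CPM in shSCR and 1234, 1274 and 1363 CPM in shPostn (0.63, called). Tgfb3, a TGF-beta ligand, had 85.9, 91.7 and 101 CPM against 143, 147 and 139 CPM (0.62, called). Neither gene's groups overlapped. Adam17, the protease that sheds growth factors and cytokines, rose by 0.26, and the proteoglycan gene Sdc1 had 0.16 without being called. Ltbp2 and Fbln5, the other 2, lay above the limit and are given with the departing genes.

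Immediate-early and NF-kB genes were varied. Fos had 519, 439 and 668 CPM against 1209, 539 and 802 CPM (0.65, or 0.31 without shPostn replicate 1), and its groups overlapped. Nfkbia had 227, 166 and 229 CPM against 550, 297 and 243 CPM (0.81, or 0.38 without shPostn replicate 1), with no overlap, and was not called. Traf3, an adaptor that restrains NF-kB signalling, rose by 0.59. The MYC partner gene Max had 0.35 without being called, and Jdp2 of the same list stood at 0.02.

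Of 11 developmental and tissue-identity transcription factor genes among the members, 9 lay within 0.5 of the median. Of the 11, 6 were called higher (Pax9 among them), beside 43.3% of all members and 4.61% of all genes tested. Nothing is read from that count. Zfp36l1, an mRNA decay factor gene kept on this list, had 151, 150.2 and 176 CPM in shSCR and 260, 231 and 264 CPM in shPostn, without overlap, and rose by 0.66, and Twist1, a driver of mesenchymal identity, rose by 0.54. Etv1 (0.44) and Yy1 (0.33) were called as well. Six4 (0.50), Meox2 (0.58) and the hypoxia factor gene Hif1a (0.33) were not. The remaining 2 left the band in opposite directions, Pax9 upward and Ahr downward.

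In all, 34 members (15 above and 19 below) lay more than 0.5 from the median. They were unevenly placed: the bins from 40 to 50 Mb and 60 to 70 Mb (9 and 27 members) held none, the bin between them held 1 of 37, and 42 members in a row followed the chromosome between Ahr and Pax9, over 21.2 Mb. They formed 33 neighbouring pairs, of which 15 were within 1 Mb, 11 of these on the same side of the median. Among these 15 pairs, 5 had no other member between them, and all 5 were on the same side of it. Gpr135 and L3hypdh, above the median, were 2302 bases apart. The pairs below were Sypl with Atxn7l1, Gm4027 with Adck1, Gm7143 with Otub2, and Serpina1d with Serpina3g. At the other extreme, Pld4 (above) and Gpr132 (below) were separated by 81882 bases with 3 members between them.

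Among the genes above the limit, 13 of 15 were called higher, beside 43.3% of all members and 4.61% of all genes tested. Of the 15, 14 were above the chromosome median of each of the 3 shPostn libraries. These genes were picked on the same contrast, so nothing is read from either count. Ccdc88c (100911523 to 101029056, minus strand), which encodes Daple, a Dishevelled-binding protein of Wnt signalling, had 2.36, 3.32 and 2.74 CPM in shSCR and 23.6, 18.4 and 10.1 CPM in shPostn. That was the largest rise of the chromosome, 2.63 (SE 0.33), and the lowest shPostn library was still well above the highest shSCR library. Gpr135, an orphan receptor gene, went from 1.72, 1.76 and 1.47 CPM to 7.49, 7.53 and 5.25 CPM (2.03, SE 0.22). Its neighbour L3hypdh, for a dehydratase of hydroxyproline breakdown, went from 3.49, 3.18 and 3.91 CPM to 9.54, 10.4 and 6.89 CPM (1.34, SE 0.20). Both genes had their smallest shPostn value in replicate 3 and neither overlapped between groups.

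Fam110c, whose protein sits at centrosomes, had 9.79, 7.72 and 7.11 CPM against 30.9, 23.8 and 29.9 CPM (1.78, SE 0.16). Greb1, an oestrogen-responsive gene, had 12.5, 10.5 and 14.2 CPM against 41.7, 37.6 and 32.9 CPM (1.59, SE 0.14). In these 2 genes the spread within a group was small beside the gap, and both were called with each library left out in turn. Both were picked for their distance above the median in this same contrast, so nothing is read from that.

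Pax9, a paired-box factor of skeletal and tooth development, had 2.80, 3.32 and 2.64 CPM against 8.36, 7.73 and 5.89 CPM (1.32, SE 0.20). Itgb8, the integrin subunit that binds latent TGF-beta, had 6.40, 7.04 and 8.27 CPM against 16.7, 17.7 and 17.7 CPM (1.26, SE 0.12). Fut8, which adds core fucose to glycoproteins, had 60.4, 45.3 and 46.1 CPM against 138, 100 and 118 CPM (1.23, SE 0.16). All 3 rose without overlap; the call of Pax9 was lost without shSCR replicate 1 or 3.

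Ppp1r13b, for the p53-binding protein ASPP1, rose from 2.90, 2.74 and 3.55 CPM to 8.47, 8.09 and 7.19 CPM (1.37, SE 0.17). Adssl1, the muscle form of adenylosuccinate synthase, rose from 6.0, 3.66 and 4.01 CPM to 9.95, 10.3 and 16.1 CPM (1.41, SE 0.26), its highest value in replicate 3, with the call lost without shSCR replicate 2 or 3. Ppp1r13b overlaps the expressed gene Zfyve21 on the opposite strand, and Tmed8 (1.09, called) likewise overlaps Samd15; the library kit kept strand, but how strand entered the counting is not given in the sources used here.

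Elastic-fibre genes were also above the limit. Ltbp2, of the family that binds latent TGF-beta, had 166, 139 and 203 CPM against 539, 424 and 243 CPM (1.25, SE 0.32), without overlap and without a call. Fbln5, which encodes fibulin-5, had 129, 177 and 176 CPM against 300, 338 and 258 CPM (0.89, SE 0.15, called), just past the limit. Prkar2b, a regulatory subunit of protein kinase A, was the next past it, with 102, 79.2 and 81.5 CPM against 198, 181 and 122 CPM (0.93, called).

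Pld4, a lysosomal nuclease gene of phagocytes, rested on 1 library. It had 5.12, 4.15 and 2.79 CPM in shSCR and 2.98, 2.02 and 23.5 CPM in shPostn (1.24, SE 1.00, not called). Without shPostn replicate 3, which had the leukocyte marker sum of 1579 CPM, the value was -0.69, and the part of leukocyte RNA in it was not tested.

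Of the 19 genes below the limit, 4 were called lower, beside 5.53% of all genes tested. These genes were picked on the same contrast, so nothing is read from that count. Of the 19, 8 had a log2 fold change above -0.25, close to no difference between the groups. Serpina1d (103763594 to 103773592, minus strand), an alpha-1-antitrypsin gene, fell from 51.1, 54.8 and 52.4 CPM to 22.2, 14.8 and 22.8 CPM (-1.41, SE 0.16). It overlaps the paralog Serpina1b on the same strand, so the division of reads in this family is uncertain. Only Serpina1d and Serpina3g of the 18 listed serpin A genes on the chromosome were above 4 CPM, and both lay below the limit. Serpina3g, a protease inhibitor gene, had 17.0, 14.7 and 16.6 CPM against 3.80, 26.5 and 6.34 CPM (-0.40, SE 0.73, not called), with replicate 2 above every shSCR library and the other 2 below. None of the 4 listed genes of the imprinted Dlk1-Dio3 region in the table reached 4 CPM.

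Dio2 (90724552 to 90738438, minus strand), the deiodinase that makes active thyroid hormone inside cells, fell from 34.4, 46.8 and 50.5 CPM to 16.8, 18.9 and 26.5 CPM (-1.08, SE 0.22). Its groups did not overlap, and the call was lost without shSCR replicate 2 or 3 or without shPostn replicate 1 or 2. The predicted gene Gm4027 fell furthest, from 7.18, 5.67 and 9.70 CPM to 0.667, 0.354 and 0.699 CPM (-3.70, SE 0.34). With a mean of 4.04 CPM, it passed the threshold only through shSCR (mean 7.52 CPM, against 0.573 CPM in shPostn). Its fall is thus in part set by how members were chosen. The pseudogene Gm48082 fell from 22.1, 21.9 and 25 CPM to 15.9, 13.5 and 13.7 CPM (-0.68). These last 2 were named after their values were seen, because they complete the 4 lower calls.

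The other genes below the limit were not called. Ahr, the aryl hydrocarbon receptor, had 9.05, 17.7 and 18.5 CPM against 6.11, 11.8 and 11.7 CPM (-0.61, SE 0.36), and its groups overlapped because shSCR replicate 1 was low. Gpr132, a receptor gene of lymphocytes and macrophages, had 7.72, 7.23 and 5.58 CPM against 5.54, 2.93 and 5.79 CPM (-0.53). Otub2, a deubiquitinase gene, had 21.0, 18.8 and 24.1 CPM against 14.8, 18.3 and 14.3 CPM (-0.43), with no overlap. Rsad2, the antiviral gene viperin, had 20.5, 31.7 and 30.7 CPM against 12.5, 29.3 and 29.8 CPM (-0.21, or 0.10 without shPostn replicate 1). Others of the interferon list were on the chromosome too. Ifi27 rose by 0.30. Cmpk2 had 21.4, 24.6 and 27.3 CPM against 20.01, 39.2 and 30.6 CPM (0.29, or 0.05 without shPostn replicate 2). Ifi27l2a had 5.56, 6.45 and 5.84 CPM against 6.05, 7.83 and 13.5 CPM (0.62, or 0.22 without shPostn replicate 3, the library with the high leukocyte marker sum). Neither was called, and the groups overlapped in both genes.

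The remaining named genes on this side had log2 fold changes between -0.39 and -0.11. Esyt2, which tethers the endoplasmic reticulum to the plasma membrane, had 266, 254 and 270 CPM against 269, 199 and 180 CPM (-0.29). Adck1, a mitochondrial kinase-like gene, had 19.9, 24.9 and 26.2 CPM against 19.6, 19.3 and 17.6 CPM (-0.33), its groups not overlapping although it was not called. Rad51b, a gene of homologous recombination, had 5.61, 4.84 and 4.82 CPM against 4.51, 4.2 and 4.8 CPM (-0.18). The repair genes Fancm (0.32) and Xrcc3 (0.59) followed the chromosome, as did Siva1 (0.49, called), from the same list of p53-axis and repair genes. Tmem229b (-0.39) and Efcab11 (-0.16), with 3.64 to 8.21 CPM and 5.99 to 10.04 CPM over the 6 libraries, completed the 12 named genes on this side. Osr1 (-0.13) and Sypl (-0.11) lay just past the limit on the low side, and Dnmt3a, a DNA methyltransferase gene (-0.11), and Ispd (-0.07) just inside it. On the high side Hsp90aa1 (0.87) and Asap2 (0.86) were just inside. At the level threshold, Bdkrb2 (4.01 CPM) and Gm4027 (4.04 CPM) were just inside and Wdr89 (3.91 CPM) and Gm47056 (3.82 CPM) just outside.

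**Figure D5:**
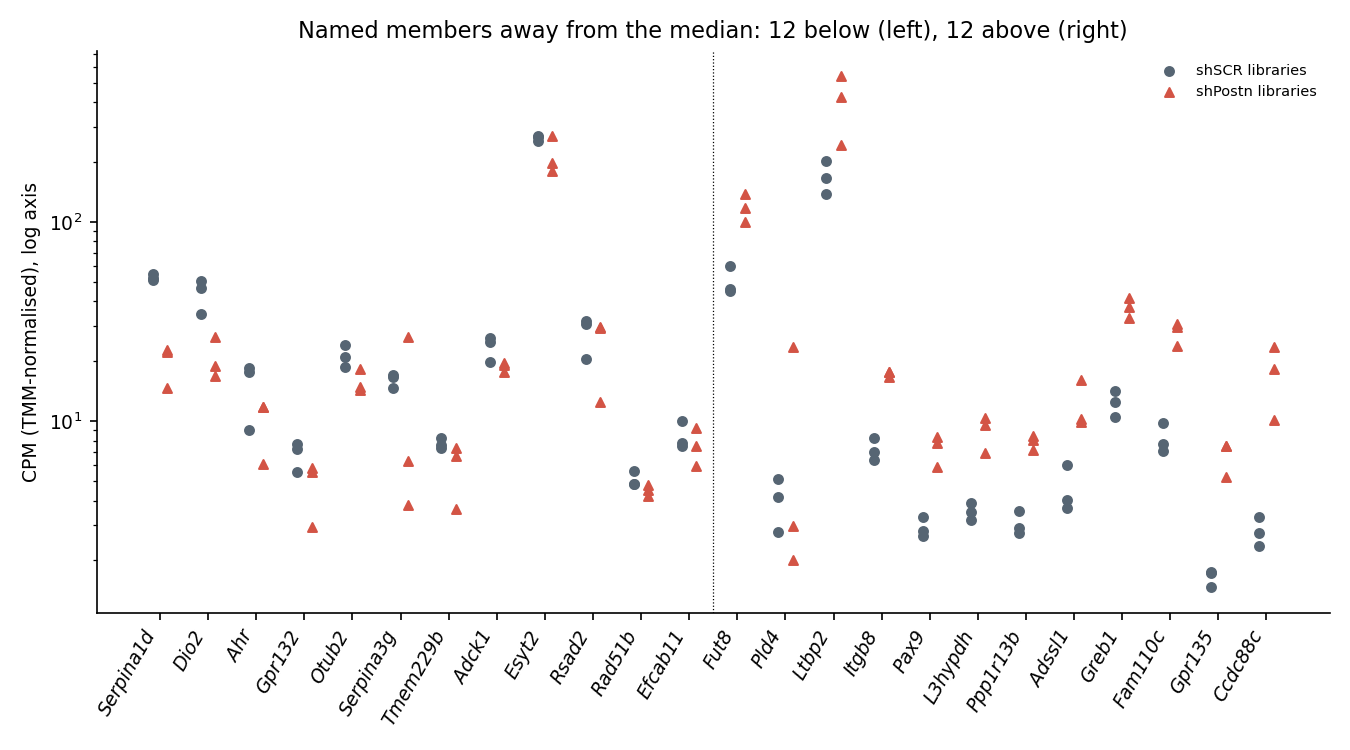
CPM in each library (log axis) of the 12 named genes below the limit, left of the dotted line, and the 12 above it, right, with shSCR as circles and shPostn as triangles. Ccdc88c spans 2.36 to 3.32 CPM in shSCR and 10.1 to 23.6 CPM in shPostn, and Serpina1d spans 51.1 to 54.8 CPM and 14.8 to 22.8 CPM.

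The genes that left the band are described next by level and spread. The median of the mean CPM over all 6 libraries was 11.9 for those above, 18.5 for those below and 43.1 for those within. The threshold of 4 CPM applies to both groups together, so 5 of the 15 genes above (Ccdc88c, Gpr135, L3hypdh, Ppp1r13b and Pax9) passed it with a shSCR mean at or under 4 CPM, and a low shSCR level in that class is in part set by how it was chosen. In all, 20, 8 and 6 genes departed in the low, middle and high class of CPM per kilobase. The SD of log2 values within shSCR had a median of 0.21 for the genes above, 0.18 for those below and 0.08 for those within. In the class of 125 genes with the smallest spread within shSCR 123 followed the chromosome, and in the class with the largest spread 100 of 125 did. Counting error is larger at low levels and enters both the spread and the distance from the median, and its part in these counts was not tested. The distance from the median was over 2 standard errors in 14 of the 15 genes above and in 16 of the 19 below. It was also over 2 standard errors in 81 of the 340 within. The classes were set by that same distance, so nothing is read from these counts.

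Promoter sequence also differed in its medians between these groups. RefSeq held a promoter for 312 of the 374 genes. Median GC content was 64% for 14 genes above, 62% for 283 genes within and 51.6% for 15 genes below, beside 60.4% for 7973 genes of other chromosomes. The median number of CpG dinucleotides in the 250 bases was 16.5, 19, 7 and 17 in that order. TATAAA occurred in none of the 14, in 14 of the 283 (4.95%) and in 2 of the 15 (13.3%), beside 5.98% of the genes of other chromosomes and 12.4% of all 32851 RefSeq promoters. GGGCGG, the core of the GC box, occurred in 71.4%, 60.8% and 40%, beside 62.6% of the genes of other chromosomes and 32.7% of all. TGANTCA, the AP-1 type sequence, occurred in 2 of 14, 13 of 283 and 3 of 15, beside 3.94% and 6.75% of these backgrounds. CCAAT was in 28.6%, 37.1% and 33.3%, beside 37.2% and 33.8%, and TGACGTCA in 0 of 14, 13 of 283 and 1 of 15, beside 2.81% and 1.55%.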

How the data were processed

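Per the labels, polyadenylated RNA of sorted cells was made into strand-specific libraries. The deposited table holds whole-number estimated counts per Ensembl gene; Salmon and mm10 are named in the submitters' processing notes, with version, transcript annotation and counting options not given in the sources used here. Each of the 6 columns was used.

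Genes were placed by GENCODE M21 (GRCm38); 234 of 35727 identifiers had no position. Membership used CPM from column totals, and printed CPM used TMM library sizes. The fit covered the whole table with edgeR 4.0.16 in R 4.3.3. Settings were filterByExpr minimum count 10, TMM, a robust quasi-likelihood F-test without a block, and Benjamini-Hochberg over 12819 genes with a threshold of 0.05. On simulated counts with 200 changed genes, 176 genes were called, of which 16 were unchanged. The calls recovered 72% of the 2-fold and 88% of the 4-fold changes. Log2 ratios of single libraries used a pseudocount of 0.5 CPM. The pooled dispersion was estimated over all 6 libraries. Levels were compared between genes as CPM per kilobase of exon.

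Named genes were the 12 farthest above and below the median (predicted genes and pseudogenes left out), the 12 most abundant within 0.5, list members, the genes nearest each limit and Postn; a few of them are not reported here. The members and the lists were chosen with earlier results of these data known. Alternatives were other scalings, filters and levels, DESeq2 1.42.0, limma-voom (3.58.1), a replicate block and each library left out. Promoters came from RefSeq (GRCm38.p6).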

Additional observations from a re-analysis of the deposited data

How the results depend on the processing

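The chromosome 12 median stayed between 0.37 and 0.39 under other scalings, filters, levels, DESeq2, limma-voom and the block, and between 0.32 and 0.45 with each library left out. All 12 bins stayed positive, and complex subunits exceeded partners by 0.49, or by 0.43 to 0.49 with a library left out; alternatives for these last 2 were chosen after seeing the data. Counts moved more. Genes called higher numbered 162, 215 by DESeq2, 104 with the replicate block and 39 to 256 with a library left out, and genes called lower 4, 7 with members above 1 CPM and 3 to 4 with a library left out. Departing genes above and below numbered 15 and 19, 25 and 32 with members above 1 CPM, 9 and 13 above 10 CPM, 5 and 5 with a limit of 1, and 14 to 17 and 14 to 27 with a library left out. Of the 34, at least 26 departed again with any 1 library left out, and 21 did among members above 10 CPM. Of 47 named genes called, 17 were called under all 14 refits, which reuse the same libraries, so nothing is read from that count. Same-numbered libraries correlated at -0.07, -0.13 and -0.44 in their deviations from the group means, and no library correlated best with its own number, so the block pairs only numbers. The causes of these differences were not tested. Low counts limit the genes near 4 CPM most.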
